A study of Mus musculus with 2 samples.

Results

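The genes described here encode the machinery with which a nerve terminal stores, primes, fuses and recovers synaptic vesicles. The set holds 34 genes, picked by name for their known function, at a time when earlier results of these data were known. All 34 were found among the 43346 Ensembl genes of the deposited tables, of which 21461 are protein-coding genes outside the mitochondrial genome. They fall into 10 roles, namely SNARE proteins, SNARE disassembly factors, synaptotagmins, complexins, active zone and priming proteins, vesicle membrane proteins, synapsins, Rab3 proteins, endocytosis proteins and a synuclein. The samples were whole midbrains of B6NCrl mouse embryos at 14.5 days of development, with no treatment or altered allele named in the labels. There were 2 libraries, each from the midbrain of 1 pup, labelled biological replicates 1 and 2 and called embryo 1 and embryo 2 here. Collection took place on separate days for each pup. The labels give the sex as pooled, which is at odds with 1 pup per library. RNA longer than 200 nt was used, with 10 ng put into each library.

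Both libraries belong to 1 group, so the design allows no test and no p-value. What it allows is the level of each gene in each embryo, and the difference between the embryos set against counting error. Levels are the authors' TPM values, in which reads are divided by transcript length and scaled to the same total in each library, and a level written as mean ± SD is over both embryos (n = 2). Ratios between the embryos were taken from the authors' expected counts after TMM scaling, with a 95% interval that covers counting error only. The whole midbrain was sequenced in bulk, and fewer cells that use a gene cannot be told apart from less of its RNA per cell.

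At a chemical synapse, a vesicle carries the SNARE protein synaptobrevin, which zippers with syntaxin and SNAP-25 in the plasma membrane and pulls the membranes together. Complexin holds this assembly before fusion, and synaptotagmin triggers fusion when calcium enters. RIM and Munc13 dock and prime vesicles at the active zone, where Bassoon and Piccolo are scaffolds, and Rab3 and the synapsins govern vesicle supply. NSF and the SNAP adaptors take spent SNARE complexes apart, and dynamin, amphiphysin, synaptojanin and endophilin recover the membrane. At this age midbrain neurons are being born and extend axons, and many of these proteins also serve the vesicle traffic of growing neurites before synapses form.

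Expected counts summed to 32716100 over the table of embryo 1 and to 30185500 over that of embryo 2, each rounded to 6 digits. The presynaptic genes took 0.427% of the gene counts in embryo 1 and 0.473% in embryo 2, and their TPM values summed to 2430 and 2572. Midbrain markers were present, with all 5 genes of the list detected and Otx2, the homeobox gene of forebrain and midbrain, at 99.9 and 76.3 TPM. All 7 neuron markers were detected, and they summed to 3586 TPM in embryo 1 and 3728 in embryo 2.

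Every presynaptic gene was expressed in both embryos, and as a group they were more abundant than the usual protein-coding gene. All 34 reached a TPM of at least 1 in each embryo, a level reached by 59.5% of the 21461 protein-coding genes. At least 10 TPM was reached by 31 of them and at least 100 TPM by 8, as means over both embryos. The median level was 54.6 TPM (53.6 in embryo 1 and 57.4 in embryo 2), against 20.3 for the 12773 detected protein-coding genes and 4.66 for all of them. The highest was Rab3a, at 346 ± 24.6, and the lowest was Sv2b, at 3.90 ± 0.778. Levels above the median of detected protein-coding genes were found for 25 of the 34. By the TPM of the whole gene, with all its transcript models, Rab3a, Vamp2, Syt4, Napa, Syt11 and Syngr3 lay above 90% of the detected protein-coding genes.

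**Figure D1:**
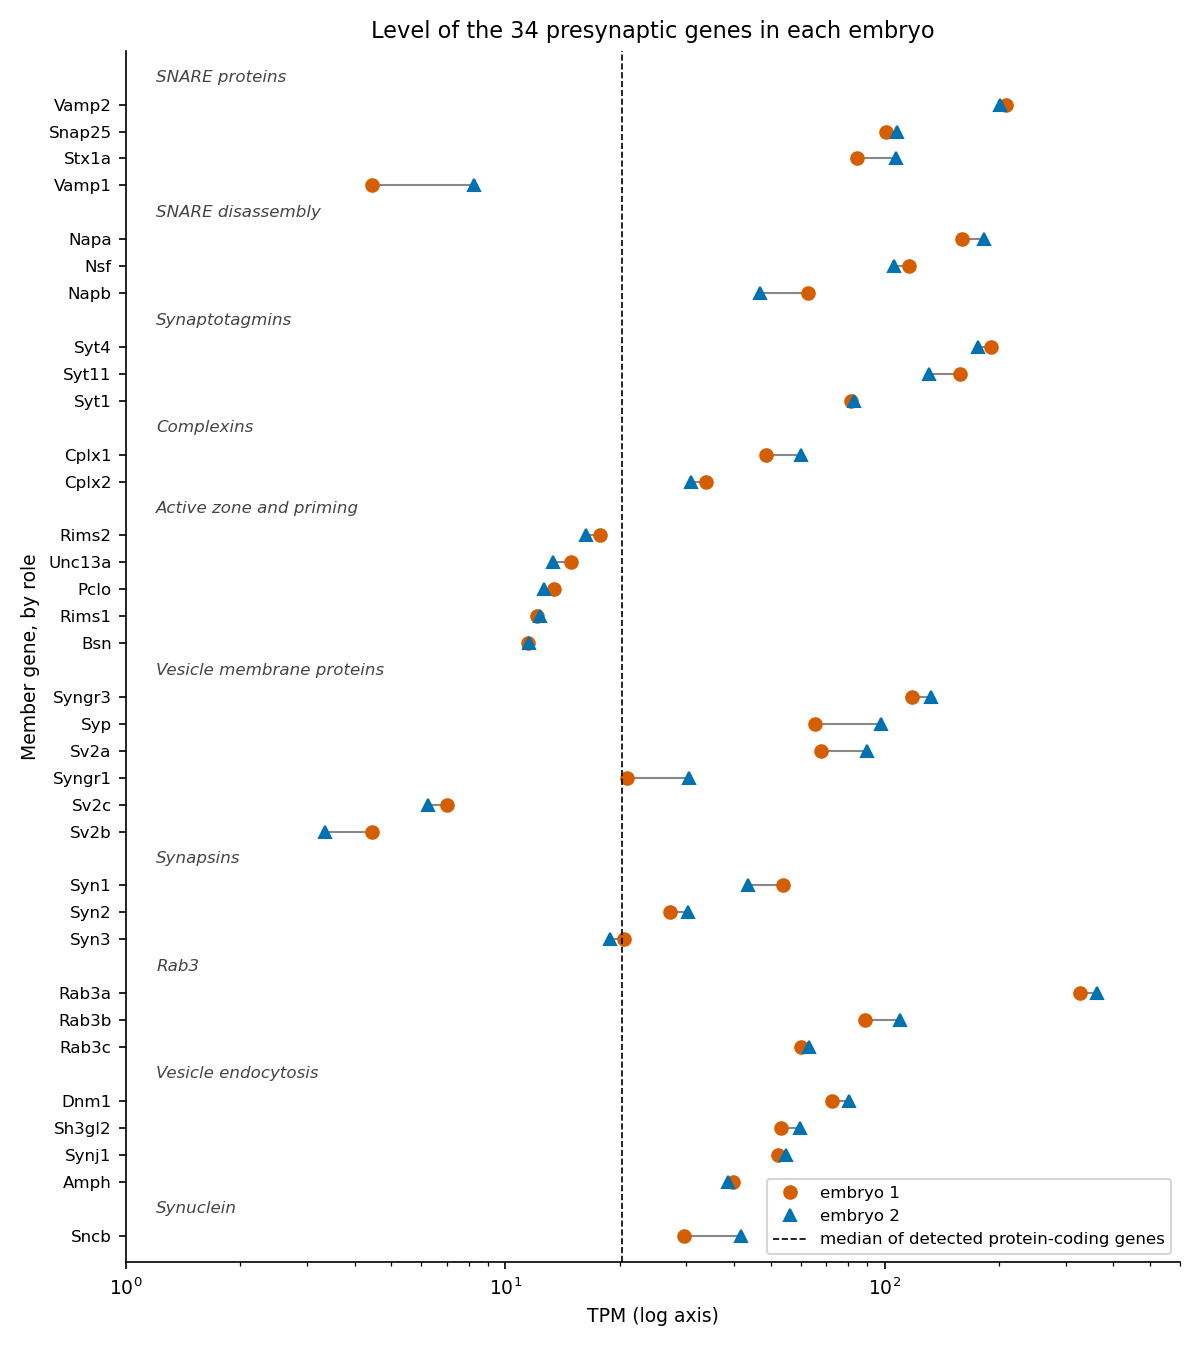
Level of each of the 34 genes in TPM on a log axis, grouped by role, with embryo 1 as orange circles, embryo 2 as blue triangles, and a dashed line at the median of detected protein-coding genes (20.3). The points of most genes lie close together, and the 5 active zone genes all lie left of the line, between 11.5 and 17.0 TPM on average.

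Among the SNARE genes, the vesicle SNARE Vamp2 and the plasma membrane partners Snap25 and Stx1a were abundant, whereas Vamp1 was low. Vamp2, which encodes synaptobrevin 2, the main vesicle SNARE of the forebrain, stood at 209 TPM in embryo 1 and 202 in embryo 2. Its paralog Vamp1, best known from motor and sensory terminals, had 4.45 and 8.28, so that Vamp2 held 69.9% and 69.6% of the summed TPM of Vamp1 to Vamp4 and Vamp1 held 1.49% and 2.85%. The more widely used Vamp4 (56.8 ± 0.764) and Vamp3 (25.9 ± 3.06) lay between them, and the levels of all 4 genes were apart in both embryos. Snap25, the neuronal SNAP-25 gene, had 101 and 108 TPM. Snap47, a SNAP-25 relative found mainly on intracellular membranes, was 4.19 times as abundant on average, at 421 and 452. Stx1a, the syntaxin of the release complex, had 84.3 and 107 TPM.

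Snap25 has a pair of alternative copies of its exon 5, of which a mature RNA holds only one. They encode the SNAP-25a and SNAP-25b forms, and the a form is known as the earlier of the pair in rodent brain. The copies are shown because the transcript models of the gene differ by them. Each copy is 118 bases long, and they differ at 31 bases, which are in capitals (GRCm38, plus strand, chr2:136769743-136769860 for the a exon and chr2:136770057-136770174 for the b exon).
Snap25-202, a exon: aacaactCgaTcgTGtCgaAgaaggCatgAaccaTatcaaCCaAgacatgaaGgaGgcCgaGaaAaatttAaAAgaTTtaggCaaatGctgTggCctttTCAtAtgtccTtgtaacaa
Snap25-201, b exon: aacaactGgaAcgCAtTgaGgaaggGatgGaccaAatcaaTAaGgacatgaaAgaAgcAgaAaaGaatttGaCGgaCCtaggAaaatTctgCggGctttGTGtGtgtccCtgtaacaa
Most of the estimated Snap25 RNA was assigned to the model with the b exon. Snap25-201 took 3520 expected counts in embryo 1 and 3858 in embryo 2, and 90.4% and 93.1% of the gene's summed transcript TPM. Snap25-202, the coding model with the a exon, took 153 and 114 counts, and 8.64% and 6.08%. A further model, Snap25-203, keeps an intron and took 0.923% and 0.847%. The coding models also differ at the 3′ end, where the last exon of Snap25-201 is 1354 bases long and that of Snap25-202 is 277, so their shares are not a measure of exon use. Within the coding models, reads that fit only the a exon can lie only among the 153 and 114 counts, but the tables hold no counts per exon. Whether Snap25-203 holds either copy was not examined.

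The SNARE disassembly genes were all abundant. Napa, which encodes alpha-SNAP, the adaptor present in most cells, had 160 TPM in embryo 1 and 183 in embryo 2. Napb, which encodes the brain-enriched beta-SNAP, had 62.9 and 46.8, and Nsf, the ATPase that the adaptors recruit, had 116 and 106. Napa was above Napb in both embryos, 3.13 times on average, while Napb overlapped with Napg, the gamma-SNAP gene (50.9 ± 4.05). Transcript models not labelled protein coding held 35.5% of the Napa TPM in embryo 1 and 39.1% in embryo 2. The coding model Napa-201 had 103 and 111 TPM, against 60.7 and 44.8 for the coding model Napb-201.

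The synaptotagmin genes were led by members other than the calcium sensor of fast release. Syt4, whose protein binds calcium weakly and sits on dense-core and transport vesicles, had 191 TPM in embryo 1 and 176 in embryo 2. Syt11, a synaptotagmin that does not bind calcium, had 158 and 131. Syt1, the calcium sensor of fast release in forebrain neurons, had 81.7 and 82.9, below both in each embryo. Of 15 synaptotagmin genes measured, Syt4, Syt11 and Syt1 took 27.7%, 22.96% and 11.9% of the family's summed TPM in embryo 1 and 26.9%, 19.9% and 12.6% in embryo 2. Syt5 had 63.5 and 84.0, a range that overlapped with that of Syt1. Syt2, the sensor of hindbrain and spinal synapses, had 1.66 and 0.99.

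Both complexins of the set, which clamp and assist the assembled SNAREs, were well expressed. Cplx1 stood at 48.6 and 60.1 TPM and Cplx2 at 33.8 and 30.8, so Cplx1 was the higher in both embryos. Cplx3 and Cplx4, known from retinal ribbon synapses, were near 0, with a mean TPM of 0.40 for Cplx3, and 1 count in embryo 1 and 0 in embryo 2 for Cplx4.

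The active zone and priming genes had the lowest median of the roles (13.0 TPM), and they were close to one another. Their means ran from 11.5 TPM for Bsn to 17.0 for Rims2, all below the median of detected protein-coding genes. Rims2 and Rims1, the large RIM scaffolds, had 17.8 and 12.1 TPM in embryo 1 and 16.3 and 12.4 in embryo 2. Unc13a, which encodes the priming factor Munc13-1, had 14.9 and 13.4. Its widely expressed paralog Unc13b had 16.2 and 11.3, so neither was above the other in both embryos. The Unc13a model Unc13a-201 shares 495 exon bases with Colgalt1 on the opposite strand (41.5 and 46.6 TPM). As the strand protocol is unknown, reads from these bases cannot be assigned to 1 strand. Rims3, a short RIM without the priming domains (16.5 ± 0.226), overlapped with Rims2 and was above Rims1 in both. Bsn and Pclo encode the giant scaffolds Bassoon and Piccolo. Bsn had 11.5 TPM in each embryo, and Pclo had 13.4 and 12.6. In counts, which are not corrected for length, these long genes were not low, with 2459 and 2682 expected counts for Bsn and 3504 and 3123 for Pclo.

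The vesicle membrane genes covered a wide range. Syngr3, a synaptogyrin enriched in brain, had 118 TPM in embryo 1 and 132 in embryo 2. Syp, which encodes synaptophysin, a major protein of the vesicle membrane, had 65.7 and 97.9, and Sv2a, the widespread member of the SV2 transporter-like proteins, had 68.0 and 89.7. Syngr1 followed at 20.9 and 30.4. Sv2c, which marks a limited set of adult neurons, had 7.00 and 6.26, and Sv2b, which is prominent in the adult forebrain, had 4.45 and 3.35. Within the SV2 family, Sv2a held 85.6% of the summed TPM in embryo 1 and 90.3% in embryo 2.

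Sv2b has 2 transcript models that code for the same 683 residues from different first exons. The first exon of Sv2b-202 lies at chr7:75308874-75309262 and that of Sv2b-201 at chr7:75308205-75308379 (GRCm38, minus strand). Sv2b-202 took 285 expected counts in embryo 1 and 329 in embryo 2, and Sv2b-201 took 170 and 18.5. This put the share of Sv2b-201 at 38.3% in embryo 1 and 5.65% in embryo 2, but the deposited TPM intervals of Sv2b-201 overlapped, at 0.789 to 2.60 and 8.17e-05 to 1.26, so the embryos could not be told apart. With the posterior mean estimates its shares were 36.7% and 18.2%. The 250 bases before 2 of the RefSeq starts of Sv2b (GRCm38.p6) are shown because the models differ by these starts. Capitals mark TTTATA, the reverse complement of the TATA letters TATAAA.
Sv2b, start of Sv2b-202, chr7:75309263-75309512: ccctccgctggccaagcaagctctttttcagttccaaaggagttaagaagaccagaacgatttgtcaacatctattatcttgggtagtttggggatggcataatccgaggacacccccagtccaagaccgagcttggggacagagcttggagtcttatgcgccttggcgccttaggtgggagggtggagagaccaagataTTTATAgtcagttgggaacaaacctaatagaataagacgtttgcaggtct
Sv2b, start near Sv2b-201, chr7:75308387-75308636: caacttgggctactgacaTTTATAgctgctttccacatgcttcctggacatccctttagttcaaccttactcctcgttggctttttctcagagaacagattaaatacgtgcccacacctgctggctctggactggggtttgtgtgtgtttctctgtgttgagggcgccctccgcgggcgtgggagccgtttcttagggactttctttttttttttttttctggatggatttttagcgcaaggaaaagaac
Each window shown holds these letters once, nearer to the start in the window of Sv2b-202 and at the far end in the other. Sv2b windows for RefSeq starts further downstream, at chr7:75302610-75302859 and chr7:75220020-75220269, hold neither TATAAA nor TTTATA and are not shown.

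The synapsin genes were ordered Syn1, Syn2, Syn3 in both embryos. Synapsins coat vesicles and hold the reserve pool. Syn1 had 53.9 TPM in embryo 1 and 43.6 in embryo 2, Syn2 had 27.1 and 30.2, and Syn3 had 20.5 and 18.9. Syn1 and Syn2 each have transcript models for a long and a short protein. Syn1-201, which codes for the 706 residues of synapsin Ia, took 66.2% and 68.4% of the Syn1 TPM, and Syn1-202, which codes for the 670 residues of synapsin Ib, took 33.8% and 31.6%. For Syn2 the short form led. Syn2-202, with the 479 residues of synapsin IIb, took 82.2% and 80.6%, and Syn2-201, with the 586 residues of synapsin IIa, took 17.8% and 19.4%. Each synapsin gene spans a TIMP gene on the opposite strand. As the strand protocol is unknown, reads from the 1733 exon bases that Syn3-203 shares with Timp3 (18.9 and 10.3 TPM), and from the 90 that Syn2 shares with Timp4, cannot be assigned to 1 strand.

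The Rab3 genes were ordered Rab3a, Rab3b, Rab3c in both embryos. Rab3 proteins are small GTPases that tether vesicles to RIM. Rab3a, the main form in brain, had 328 TPM in embryo 1 and 363 in embryo 2, above 97.3% of detected protein-coding genes. Rab3b had 88.5 and 109, Rab3c had 60.1 and 63.1, and Rab3d, a form of secretory gland cells, had 8.25 and 7.67. Rab3a (ENSMUSG00000031840.8) lies on chromosome 8 at 70754679 to 70758677 (GRCm38). Its leading models, Rab3a-201 (71.1% and 75.3%) and Rab3a-204 (23.1% and 19.7%), code for the same 220 residues.

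The endocytosis genes lay close together. Dnm1, the neuronal dynamin that cuts the neck of a budding vesicle, had 72.8 TPM in embryo 1 and 80.6 in embryo 2. Sh3gl2, which encodes endophilin A1, had 53.3 and 59.97, Synj1, the lipid phosphatase synaptojanin 1, had 52.5 and 54.8, and Amph, which encodes amphiphysin, had 39.8 and 38.6. Several of their paralogs were at least as abundant. Sh3gl1 (73.7 ± 1.46) was above Sh3gl2 in both embryos, Sh3gl3 (63.3 ± 4.63) was above it in embryo 1 and level with it in embryo 2 (59.98 and 59.97), and Bin1 (64.5 ± 8.10) was above Amph in both embryos. Dnm1 was above Dnm3 (47.8 ± 2.17) and Dnm2 (41.6 ± 0.573) in both. Synj1 held 98.2% and 99.2% of the summed TPM of the synaptojanins.

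Dnm1 also has a pair of alternative exons of equal length, in the part that codes for the middle of the protein. They are shown because its transcript models split between them. Each copy is 139 bases long, and the copies differ at 39 bases, in capitals (GRCm38, minus strand, 5′ copy at chr2:32334682-32334820 and 3′ copy at chr2:32333066-32333204).
Dnm1-203, 5′ copy: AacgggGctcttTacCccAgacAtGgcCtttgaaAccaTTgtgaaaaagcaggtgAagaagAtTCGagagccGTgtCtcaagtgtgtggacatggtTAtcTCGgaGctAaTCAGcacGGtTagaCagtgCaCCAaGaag
Dnm1-201, 3′ copy: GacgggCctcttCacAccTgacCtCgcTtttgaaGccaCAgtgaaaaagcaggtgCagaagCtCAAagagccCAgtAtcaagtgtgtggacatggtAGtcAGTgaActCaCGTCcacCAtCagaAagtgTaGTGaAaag
The 5 models with the 5′ copy together took 69.6% of the Dnm1 TPM in embryo 1 and 63.8% in embryo 2. The single model with the 3′ copy, Dnm1-201, took 13.0% and 14.7%, and 7 short models with neither copy took the rest. In counts the 5′ copy models had 3284 and 3315 and the 3′ copy model had 564 and 704. The end of the protein divided otherwise. Models for 851 residues took 51.1% and 54.3%, and models for 864 residues took 28.5% and 21.9%.

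Sncb, which encodes beta-synuclein, a protein that binds vesicle membranes, had 29.7 TPM in embryo 1 and 41.9 in embryo 2. It was below its relative Sncg (45.8 ± 1.28) in both embryos.

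**Figure D2:**
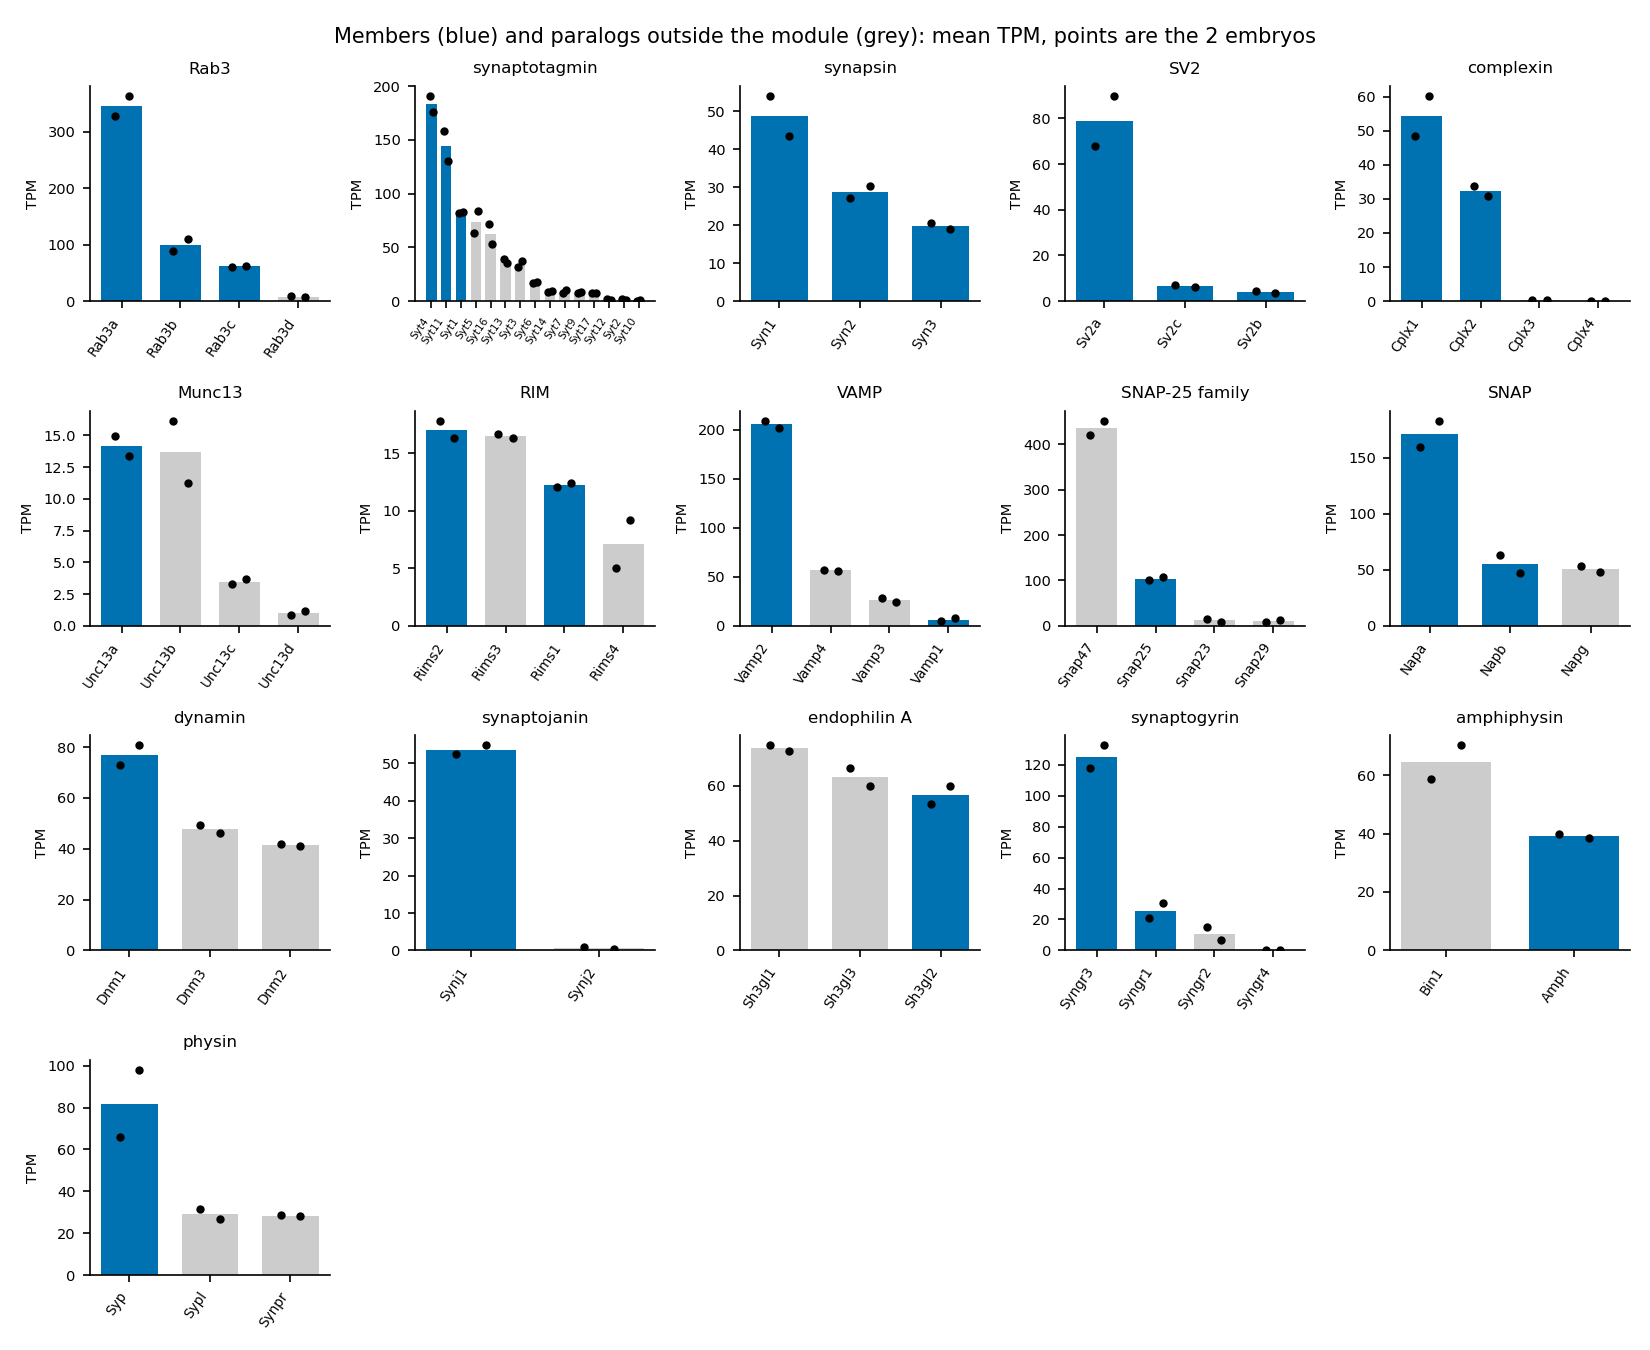
Mean TPM of each member (blue) and of paralogs outside the set (grey), 1 panel for each of the families drawn, on a linear axis from 0, with black points for the 2 embryos. Single members dominate the Rab3, SV2, VAMP, synaptogyrin and synaptojanin panels, and Snap47, outside the set, dominates the SNAP-25 family panel. Unc13a and Unc13b, and Rims2 and Rims3, stand at about the same height.

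More members were higher in embryo 2 than in embryo 1. By scaled counts, 27 of the 34 were higher in embryo 2, against 50.5% of the 14011 genes with at least 100 summed counts. The median log2 ratio of embryo 2 over embryo 1 was 0.21 for the members and 0.006 for those genes, and the median absolute log2 ratio was 0.24 against 0.23, so in size the members' ratios were about those of genes at large. For 25 members the ratio differed from 1 by more than counting error. The interval lay above 1 for 21 members, as it did for 32.8% of the 14011 genes and for 36.2% of the 10876 genes with at least 500 summed counts, which include all 34 members. It lay below 1 for 4 members, namely Syt11, Syn1, Sv2b and Napb, against 33.6% and 35.5% of those genes, and it held 1 for the other 9. This direction leans on the scaling. With the spike-in total the median of all genes shifted by -0.11 and with the deposited TPM by -0.14, and then 19 and 20 members were higher in embryo 2, against 37.5% and 34.7% of all genes. Relative to the median of all genes the members stood 0.20 higher in counts, a gap that no scaling of a whole library can alter, and 0.18 higher in TPM.

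**Figure D3:**
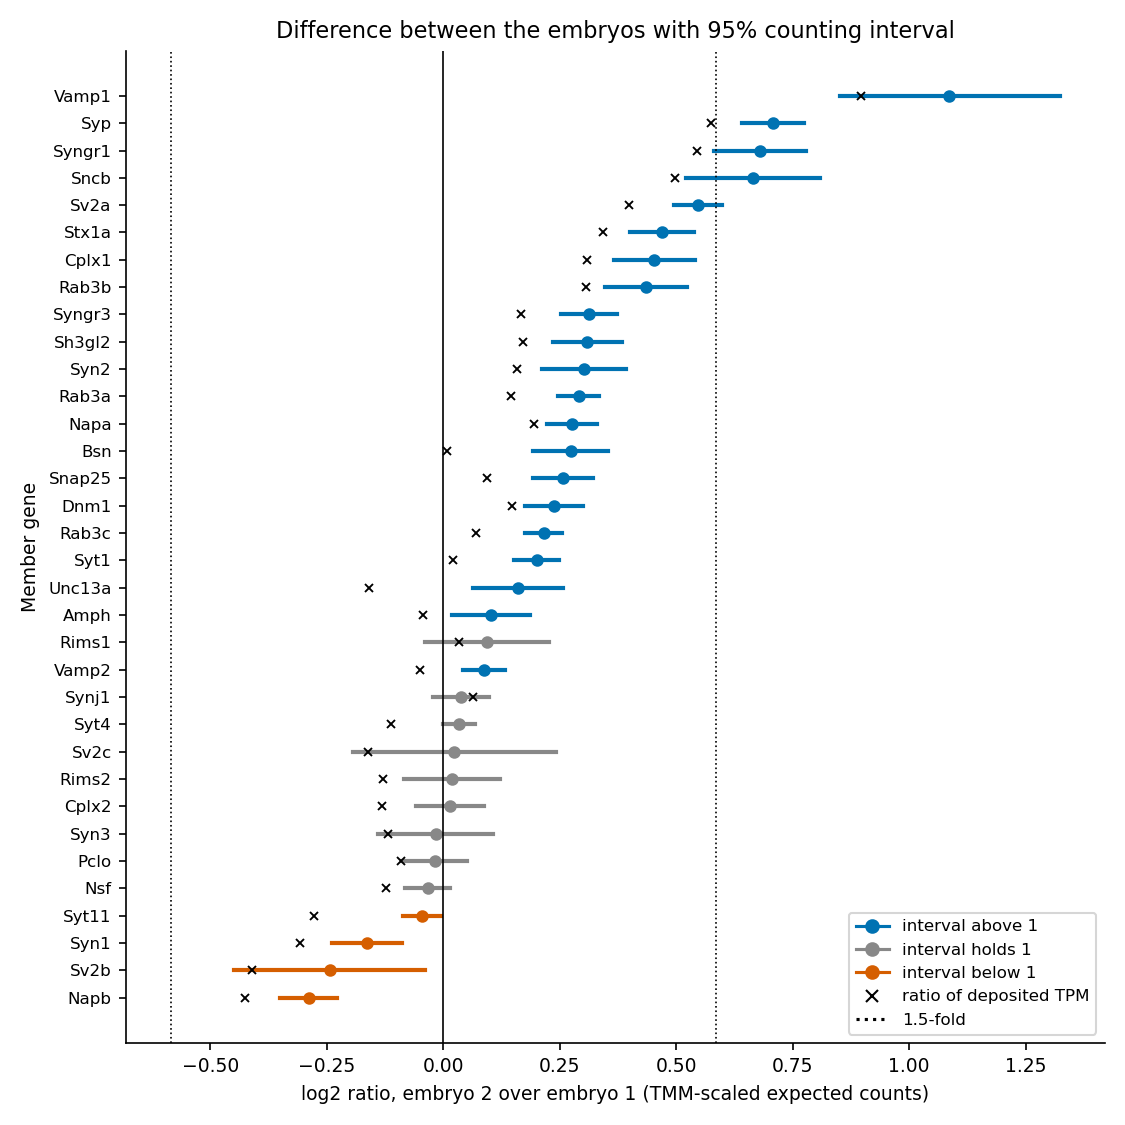
log2 ratio of embryo 2 over embryo 1 for each member from TMM-scaled expected counts, with the 95% counting interval as a bar, the log2 ratio of deposited TPM as a cross, and dotted lines at 1.5-fold. Intervals of 21 members lie right of 0, and the crosses lie left of the circles for all members except Synj1.

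Vamp1, Syp, Syngr1 and Sncb differed most between the embryos. At a fixed size of 1.5-fold, these 4 members were higher in embryo 2, where 5.65% of the 14011 genes were. None of the 34 was higher in embryo 1 by that much, where 8.59% of the genes were. Among the 10876 genes with at least 500 summed counts the shares were 3.88% and 5.48%. With the spike-in total 2 members, Vamp1 and Syp, passed 1.5-fold in embryo 2, where 3.54% of all genes did, and with the ratio of TPM only Vamp1 did, against 3.28%.

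Vamp1 (ENSMUSG00000030337.12, chromosome 6, 125215551 to 125245964, GRCm38) had 227 expected counts in embryo 1 and 435 in embryo 2, and was 2.12-fold higher in embryo 2 (1.80 to 2.50). It was also among the 3 lowest members, with Sv2b and Sv2c. Its models Vamp1-201 (55.1% and 58.1%) and Vamp1-203 (34.6% and 39.4%) held similar shares in the embryos, and both had more counts in embryo 2, with 125 and 246 for the first and 85.7 and 181 for the second.

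Syp (ENSMUSG00000031144.11, chromosome X, 7638471 to 7653256) had 3077 and 4538 expected counts and was 1.63-fold higher in embryo 2 (1.56 to 1.71). The intervals that the authors deposited for its leading model, Syp-201, were 59.1 to 63.6 TPM in embryo 1 and 88.3 to 93.7 in embryo 2, without overlap. Syp-201 shares 875 exon bases with the antisense gene Gm14703, which had 1.17 and 1.56 TPM. Syngr1 (ENSMUSG00000022415.8, chromosome 15, 80091334 to 80119501) had 1394 and 2015 counts and was 1.60-fold higher in embryo 2 (1.495 to 1.72). Sncb (ENSMUSG00000034891.9, chromosome 13, 54758860 to 54766595) had 669 and 957 counts, a ratio of 1.58 (1.43 to 1.75). The lower ends for Syngr1 and Sncb lay under 1.5-fold, so counting error alone could place both on either side of that size.

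The next members in size were Sv2a (1.46-fold, 1.41 to 1.51), Stx1a (1.38-fold, 1.32 to 1.45), Cplx1 (1.37-fold, 1.29 to 1.45) and Rab3b (1.35-fold, 1.27 to 1.44), all higher in embryo 2. For Stx1a, the coding model Stx1a-201 had 2657 and 3078 counts, and models not labelled protein coding had 414 and 760. The latter held 20.2% of the Stx1a TPM in embryo 1 and 27.1% in embryo 2. In the other direction, Napb was 1.22-fold higher in embryo 1 (1.17 to 1.27), Sv2b 1.18-fold (1.03 to 1.37), Syn1 1.12-fold (1.06 to 1.18) and Syt11 1.03-fold (1.00 to 1.06). Vamp2, Syt4, Cplx2 and Amph, among the members that stayed within 1.10-fold, were slightly higher in embryo 2 by scaled counts and slightly higher in embryo 1 by TPM.

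Members of a role did not all lean the same way. All 4 SNARE genes, all 3 Rab3 genes, all 4 endocytosis genes and both complexins had ratios above 1 by scaled counts, with role medians of log2 0.36, 0.29, 0.17 and 0.23. Of the vesicle membrane genes 5 of 6 were higher in embryo 2 (median log2 0.43), and of the active zone genes 4 of 5 (0.09). Of the SNARE disassembly genes, Napa alone of the 3 was higher in embryo 2 (median log2 -0.03), of the 3 synapsins Syn2 alone was (-0.02), and of the 3 synaptotagmins Syt1 and Syt4 were (0.03). Within families the direction could split, as with Napa (1.21-fold higher in embryo 2) against Napb, and Syn2 (1.23-fold higher in embryo 2) against Syn1. The side depended on the scaling for 9 members, namely Vamp2, Amph, Unc13a, Rims1, Rims2, Synj1, Syt4, Sv2c and Cplx2. In all scalings tried, 18 members were higher in embryo 2 and 7 were higher in embryo 1.

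**Figure D4:**
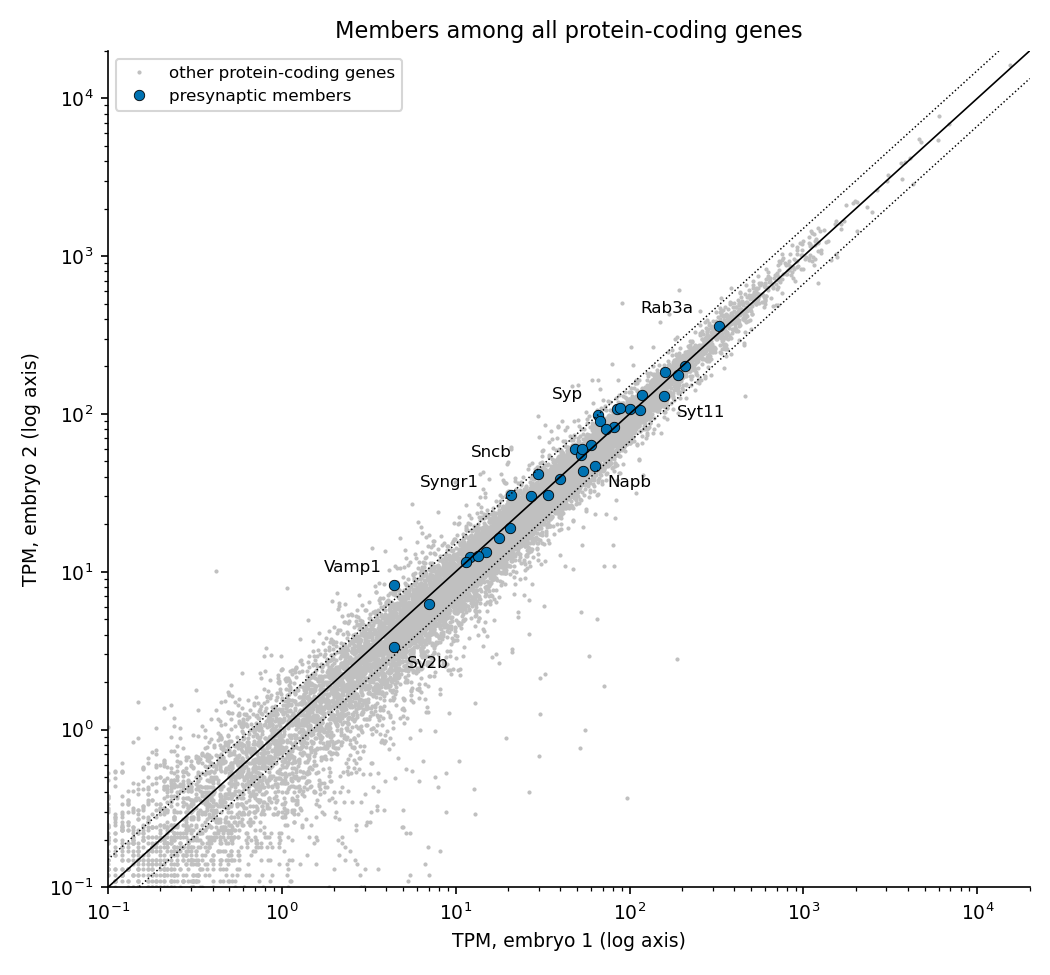
TPM in embryo 2 against TPM in embryo 1 for protein-coding genes with at least 0.1 TPM in both, on log axes, with the 34 members in blue, a solid line of equality and dotted lines at 1.5-fold. The members lie along the line of equality, and Vamp1 is the only one outside the dotted lines on this scale.

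Marker lists of other cell types also differed between the embryos, some by far more than the presynaptic genes. The 5 mitosis genes summed to 240 TPM in embryo 1 and 114 in embryo 2, all 5 higher in embryo 1. The 6 mesenchyme genes summed to 400 and 9.19, the 5 macrophage genes to 93.2 and 35.4, the 4 endothelial genes to 115 and 75.6 and the 6 red cell genes to 9869 and 6438, and every gene of these lists was higher in embryo 1 by scaled counts and by TPM. The neuron markers leaned to either side with the scaling. By TMM-scaled counts 5 of 7 were higher in embryo 2, with a median log2 ratio of 0.10, and by TPM 3 of 7 were, with a median of -0.047. The 4 markers of neuroendocrine and chromaffin cells, which use much of the same release machinery, summed to 126 and 143 TPM. By scaled counts all 4 had ratios above 1, and by TPM all but Chgb (49.98 and 48.79). The interval of Pnmt, at 0.49 and 0.84 TPM, held 1 (0.814 to 4.60). The 3 skeletal muscle genes summed to 3.18 and 4.45, with Myog at 0 in embryo 2. The part of these cell types in the ratios of the presynaptic genes was not tested.

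A wider list of 72 presynaptic genes and paralogs outside the set gave a reference for the pathway, and 71 of them, all but Vamp7, were found under their symbols. Detection at 1 TPM held for 64 of them, and the median of the 71 was 21.5 TPM, against 54.6 for the members. Hspa8, a chaperone of all cells that strips clathrin from vesicles, was the highest at 2192 ± 393. Cask (51.3 ± 0.240) led the further active zone genes and Unc13d (1.02 ± 0.198) was the lowest of them. Scamp1 (124 ± 12.8) led the further vesicle membrane proteins, and Syngr4 (0.145 ± 0.0354) and Synj2 (0.695 ± 0.346) were barely present. The lowest of their roles also included Stx4a (8.24 ± 1.49), Stxbp5 (10.1 ± 0.820), Syt10 (0.735 ± 0.191) and Rab27b (6.81 ± 0.0849). Of the 65 with at least 100 summed counts, 41 were higher in embryo 2, against 50.5% of the 14011 genes. The interval lay above 1 for 27 and below 1 for 14, against 32.8% and 33.6% of the 14011 genes. The median log2 ratio of the 65 was 0.05. The 1.5-fold size was passed by 5 in embryo 2 and by 2 in embryo 1, where 5.65% and 8.59% of the genes passed it, so the count in embryo 2 was near the share of all genes. Named after their values were seen, these included Rims4 (2.04-fold), Snap29, Doc2b and Doc2a in embryo 2, and Syngr2 (2.09-fold) and Snap23 (1.59-fold) in embryo 1. Syngr2 and Snap23 lay on the opposite side from their relatives Syngr1 and Snap25. Snap29, another relative of Snap25, lay on the same side as Snap25 (1.62-fold higher in embryo 2).

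The genes differed in how their RNA was divided among transcript models. For 16 of the 34 members a second model held at least 10% of the gene's TPM in both embryos, and for 13 a single model held at least 90% in both. Shares are estimates, since a read that fits several models is divided among them, and a short model gains TPM from few reads. Thus Bsn-202, which codes for 1170 residues, took 54.8% and 43.3% of the Bsn TPM with 888 and 706 counts, while Bsn-201, which codes for 3942, had 1571 and 1976. The deposited TPM intervals of each Bsn model did not overlap between the embryos, with Bsn-202 higher in embryo 1 and Bsn-201 higher in embryo 2. Pclo-203, a model with a retained intron, took 40.5% and 36.4%, and Rims1-207, which codes for 219 residues, took 43.1% and 48.0% with 219 and 249 counts. Rims2-201 and Rims2-202, of 1572 and 1530 residues, had 54.0% and 46.0% in embryo 1 and 45.2% and 54.8% in embryo 2. In Napa and Unc13a a coding model led one with a retained intron, with Napa-201 at 64.5% and 60.9% over Napa-206 at 14.7% and 17.0%, and Unc13a-201 at 54.3% and 61.9% over Unc13a-206 at 14.2% and 13.2%. In Syt11, Syngr1 and Syn3 the leading model coded for the longer protein. Syt11-201 (430 residues) had 72.4% and 78.7% and Syt11-205 (362) had 26.4% and 20.2%. Syngr1-201 (234 residues) had 82.5% and 81.7% and Syngr1-202 (191) had 16.2% and 17.4%. Syn3-201 (579 residues) had 62.2% and 68.6% and Syn3-202 (243) had 20.4% and 14.4%, although the RNA of Syn3-202 is the longer, at 4006 bases against 2360. Sv2c was divided among Sv2c-201 (47.1% and 44.9%), the coding model Sv2c-203 (22.7% and 35.5%) and the non-coding Sv2c-202 (30.1% and 19.6%). These rest on few reads, with 262 and 223 counts for Sv2c-201 and fewer for the others.

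Of the 4 leading Synj1 models, 2 differed between the embryos. Synj1-210, which codes for 1309 residues, took 28.4% of the gene's TPM in embryo 1 and 9.95% in embryo 2, with 1970 and 721 counts. Its deposited TPM intervals were 11.5 to 17.4 and 2.86 to 8.04, without overlap. The short model Synj1-208 took 24.3% and 35.3%, again without overlap of the intervals (10.9 to 14.7 and 16.9 to 20.5). Synj1-201, a model with a retained intron, took 21.6% and 29.2%, and Synj1-203, which codes for 1607 residues, took 17.5% and 20.3%, and the intervals of both overlapped between the embryos. The gene as a whole was level, with 4630 and 4292 counts and a ratio of 1.03 (0.985 to 1.07). Of the 150 models of the members, 27 had intervals that did not overlap between the embryos, against 8.28% of all 103639 transcripts. Among models with at least 100 summed counts it was 25 of 83, or 30.1%, against 29.1% of 26381 transcripts, so at that depth the members were near the share of all. These intervals are of levels, and a model such as Syp-201 can be apart through its whole gene. The authors' confidence level for them was not stated in the labels or headers used here.

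**Figure D5:**
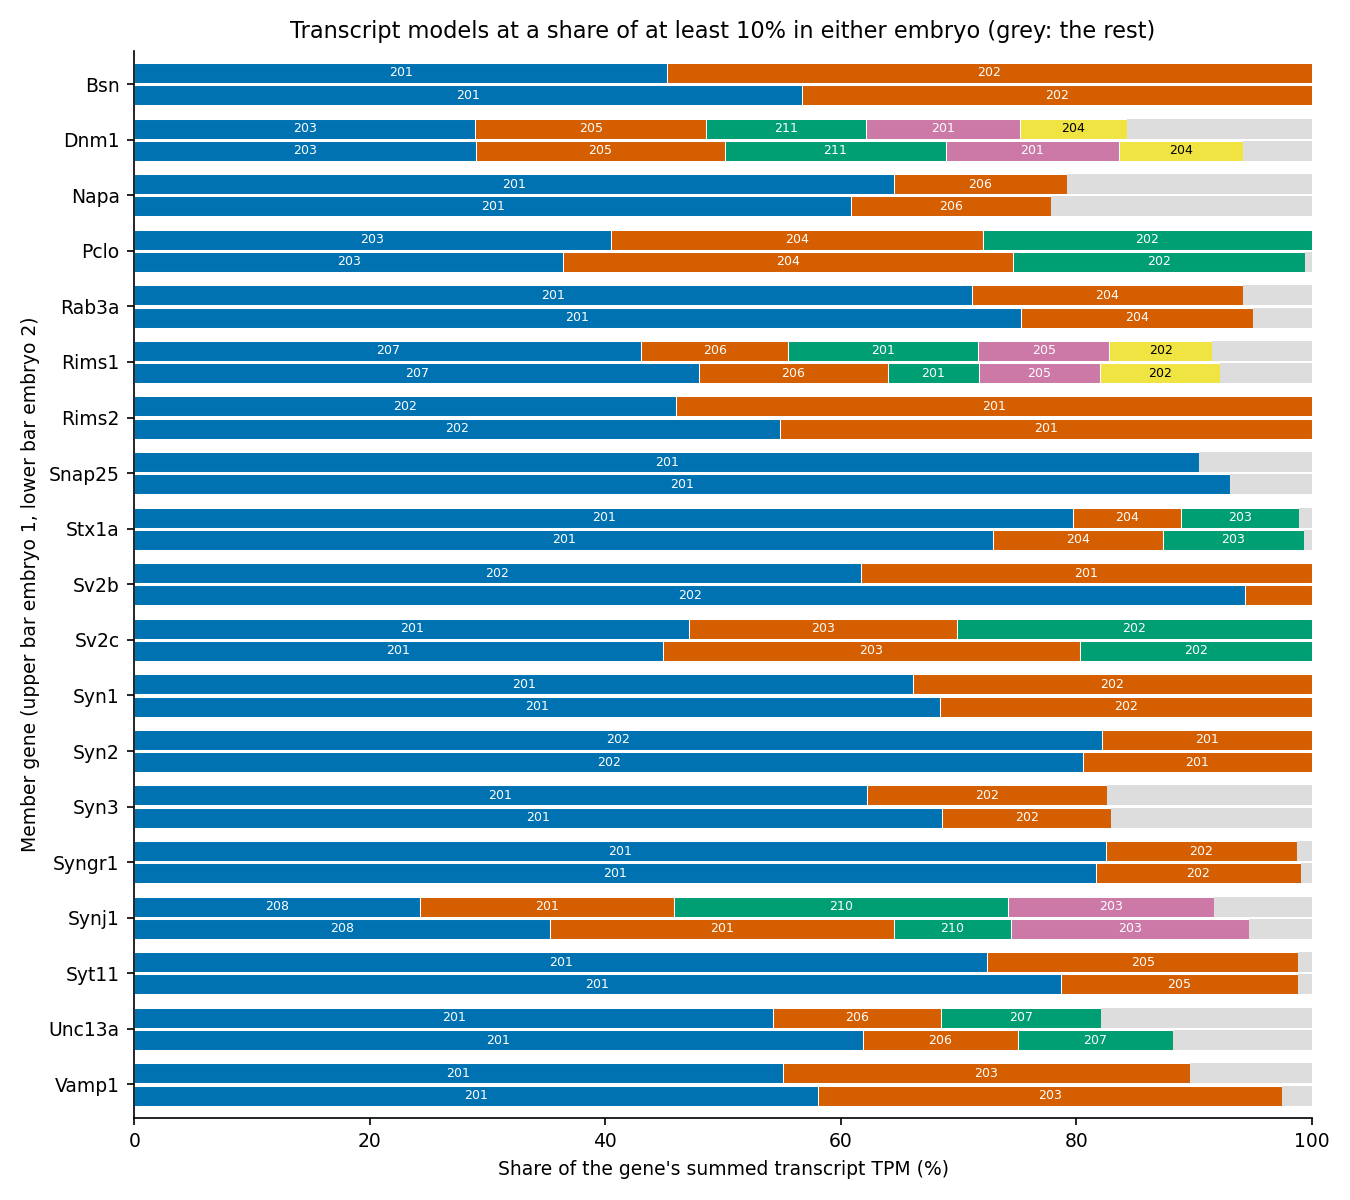
Share of a gene's summed transcript TPM in percent for the 16 members with a second model at 10% or more in both embryos, and for Snap25, Stx1a and Sv2b, with the upper bar for embryo 1, the lower for embryo 2, colours for models and grey for the rest. The shares of Syn1, Syn2 and Rab3a are alike in the embryos, while the estimated shares of Synj1-210 and, with TPM intervals that overlap, Sv2b-201 are lower in embryo 2.

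The promoters of the members were rich in GC. RefSeq promoter windows, from 250 bases before to 50 after a start (GRCm38.p6), were found for 28 of the 34 members, 35 windows in all. Their median GC content was 61.3%, against 52.7% for all 32851 windows, and their median ratio of observed to expected CpG was 0.70 against 0.38. Motifs were searched on both strands. The GC box letters GGGCGG were in 22 of the 35 windows (62.9%) and in 35.7% of all windows. TATAAA was in 3 (8.57%) against 13.6%, in windows of Rab3b and Sv2b. TGACGTCA, the CRE letters, was in 3 (8.57%) against 1.79%, and CAGCACC, the left part of the RE1 element bound by the repressor REST, was in 4 (11.4%) against 7.14%. The windows compared were not matched for GC content, and whether the motif shares differ beyond GC content was not tested. They were also not limited to expressed genes, and whether GC and CpG content differ from those of expressed genes was not tested. The 250 bases before a start are shown for Rab3a, the most abundant member, and for Syn1, whose promoter is in wide use to drive genes in neurons. Capitals mark these letters or their reverse complements, which are GC boxes in Rab3a, and CAGCACC and the CRE in Syn1. Rab3a has another window, for a start further downstream, which holds none of these letters and is not shown. Motifs in capitals are matches of letters and not measured sites, and a window without them says only that these letters are not in it.
Rab3a, plus strand, chr8:70754453-70754702: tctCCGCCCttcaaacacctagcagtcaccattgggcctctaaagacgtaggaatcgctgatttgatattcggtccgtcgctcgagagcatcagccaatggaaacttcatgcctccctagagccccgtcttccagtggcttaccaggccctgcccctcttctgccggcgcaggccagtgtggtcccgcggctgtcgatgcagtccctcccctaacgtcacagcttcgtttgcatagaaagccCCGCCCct
Syn1, minus strand, chrX:20920919-20921168: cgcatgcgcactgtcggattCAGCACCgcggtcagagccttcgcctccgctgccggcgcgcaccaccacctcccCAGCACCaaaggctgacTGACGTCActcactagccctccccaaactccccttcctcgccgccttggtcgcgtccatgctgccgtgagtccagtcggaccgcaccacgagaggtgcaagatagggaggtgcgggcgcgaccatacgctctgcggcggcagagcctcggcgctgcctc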

How the data were processed

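Total RNA of 2 embryonic midbrains was sequenced, and each library has 1 gene table and 1 transcript table. The deposited text records name the mm10 assembly and GENCODE M4, while the quantifier was not given in the sources used here. The unit expected count, per the file headers, is an estimate by the authors of the reads of a gene or transcript and need not be whole. The deposited TPM is scaled by the authors over all rows, and their posterior mean TPM served only as an alternative. Symbols, exons and coordinates came from GENCODE M21 (GRCm38), which matched 42462 of 43346 Ensembl rows. The 34 members, their roles, the related genes and the marker lists were chosen with earlier results of these data known. Every member is named. Related genes are named at the highest and lowest level of a role or where they exceed a member, some of them not being reported here, and transcripts where a second one reached 10% in both embryos.

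Detection meant 1 TPM or more in each embryo. Counts were rounded for scaling only, and TMM factors came from edgeR 4.0.16. Ratios used genes with at least 100 summed counts, a prior count of 0.5 for log2 values and an exact conditional binomial 95% interval. Without molecular identifiers, reads are not separate molecules, so the intervals cover counting error alone. The steps were tested on simulated data. Alternatives were size factors of DESeq2 1.42.0, total count, spike-in total, TPM ratios, other minimums and priors, and each library alone. As no source used here states a strand protocol, antisense and overlapping genes cannot be told apart. Motifs were searched in RefSeq promoter windows by exact match, and exon copies were compared base by base.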

Additional observations from a re-analysis of the deposited data

How the results depend on the processing

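No paired analysis was possible because the series has 1 group. The number of members detected (34) was 34 at a TPM of 0.5 and with posterior means, 32 at a TPM of 5, and 34 with either library alone. The median level of 54.6 TPM was 53.6 to 57.4 with 1 library left out, 53.2 with posterior means and 70.6 when TPM was rescaled to nuclear protein-coding genes. The number higher in embryo 2 (27) ranged from 19 to 27 over the scalings. It was 27 under all count minimums, which could not change it because all 34 members passed each of them. The minimum of 500 was added after the data were seen. The number past 1.5-fold (4) was 4 with DESeq2 size factors and total count, 2 with the spike-in total and 1 with TPM ratios. The median log2 ratio (0.21) was 0.18 with DESeq2 factors and with total count, 0.10 with the spike-in total and 0.048 with TPM. Members with a second transcript at 10% numbered 16, and 13 to 18 under the alternatives, with 17 for either library alone. The shares themselves depended on the unit. Of 44 mean shares, 32 moved by more than their SD over the embryos when taken from expected counts, and 5 did with posterior means. By single member, no ratio past 1.5-fold changed sign. All 34 ratios stayed within their counting interval with DESeq2 size factors and with total count. With the spike-in total 28 of the 34 fell outside it, and with TPM ratios 28 did. The precision is limited by having 1 library per embryo, and for Vamp1, Sv2b and Sv2c also by low counts, such as 227 and 435 for Vamp1. Ratios need both libraries, so none could be left out for them.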
